A study of Mus musculus with 24 samples.

Results

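The genes described here are 31 markers of neutrophil maturation: 5 genes of the early (azurophil) granules, 3 transcription factors, 17 genes of the late granules and late cytosol, and 6 surface receptors. Members were chosen by name: every non-control probe named for one of the genes, or for an older alias such as Ela2 for Elane, was taken, and the brightest probe stood for the gene. A probe was found for 29 of the 31, out of 27622 genes with a probe in the series; none carried the names Cebpe or Ly6g. All 29 were well above background in the sample channel on all 24 arrays, and all were among the 24102 genes tested.

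Bone marrow from female C57BL/6j mice, 6 weeks old, was profiled on 2-colour arrays after an intraperitoneal injection of olive oil, benzo(a)pyrene (BP), dimethylbenz(a)anthracene (DMBA) or the dioxin TCDD. The labels give 50 mg/kg for every agent. Wild-type (WT) marrow was taken after oil (3 arrays), 6 h after BP (2), 12 h after DMBA (3) and 12 h after TCDD (3). Mice lacking Cyp1b1 received oil (2) or DMBA for 12 h (2), mice lacking Cyp1a1 received oil (3) or BP for 12 h (3), and mice lacking both received oil (1) or BP for 12 h (2). Cyp1a1 and Cyp1b1 are cytochrome P450 enzymes that oxidise such hydrocarbons, and both genes are induced through the aryl hydrocarbon receptor. The nulls lack the enzyme in every cell as far as the labels say. Each sample is a pool of 9, and nothing in the labels says that replicate arrays came from separate animals, so p-values measure the spread between these arrays. On every array the sample was labelled with Cy3 and set against a pool of WT oil-treated marrow in Cy5, with no dye swap, so a log ratio of 0 is the level of that pool.

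Neutrophils mature in the marrow in steps that can be read from their granule genes. Promyelocytes transcribe the azurophil granule enzymes, myeloperoxidase and the serine proteases; myelocytes and metamyelocytes then make the contents of the specific and gelatinase granules; and the last stages acquire the chemotactic receptors with which the cell leaves the marrow and finds bacteria. Gfi1 and members of the C/EBP family direct these steps, with C/EBP alpha needed at entry and C/EBP epsilon for the specific granules. In bulk marrow, fewer cells of a stage and less RNA per cell cannot be told apart.

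2 properties of the arrays decide what can be read from these genes. First, many of the transcripts were so abundant that their spots were saturated, meaning that the scanner had reached its highest value. This held for 12 of the 29 genes on at least 1 array: Mpo and Ctsg of the early granules and Ltf, Camp, Ngp, S100a8, S100a9, Chil3, Lyz2, Mmp8, Hp and Retnlg of the late group. On the 3 Cyp1a1-null oil arrays the reference was saturated for all 12, and on all 3 double-null arrays the sample was saturated for 9 of them, so those ratios are not levels. There many of the genes shared nearly 1 value per array: Mpo, an azurophil peroxidase, was at 0.88, 1.21 and 1.11 on the Cyp1a1-null oil arrays, and Lyz2, a lysozyme, at 0.88, 1.21 and 1.11. The 17 genes that were never saturated are Elane, Prtn3 and Ms4a3 (early), Gfi1 and Cebpa (factors), Lcn2, Mmp9, Cd177, Fcnb, Olfm4, Padi4 and Pglyrp1 (late), and the 5 receptors Itgam, Cxcr2, Csf3r, Fpr1 and Fpr2. Counts below are given for these 17 first.

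Second, WT oil replicate 1 stood apart. Its log ratio was above every other array for 27 of the 29 genes: Mpo was at 6.57 there and between -0.47 and 1.37 on the other 23 arrays, and S100a8, an abundant cytosolic calcium-binding protein, at 6.62 against -0.49 to 1.72. For these genes the difference lay mainly in the reference channel. Relative to the 75th percentile of the array's signals, Mpo had a log2 level of 6.05 in the sample channel of this array, within the range of the others (4.99 to 6.79), but -0.01 in its reference channel, where the others held 5.27 to 7.03. Cy5 was below every other array for 25 of the 29 genes, while Cy3 lay within the range of the other arrays for 24. Cebpa and Hp, which liver also expresses strongly, were the exceptions, with log ratios below every other array (-3.05 and -1.05) and Cy5 above. A list of liver genes had a median Cy5 level of 7.46 on this array and at most -0.19 on any other, which goes against the label of its reference as marrow. Their median Cy3 level was 3.34 on this array and at most -0.37 on any other, so its sample channel stood apart for liver genes too. Every comparison is therefore given over all 24 arrays and over the 23 without this one. The reference channel also varied on other arrays although it was labelled as 1 pool: Elane had a Cy5 level of 1.09 and 0.54 on the Cyp1b1-null DMBA arrays and 2.37 to 3.84 on the remaining 21. Results are therefore also set beside the same test on the sample channel alone (Cy3 relative to the 75th percentile of its array). Such tests over all arrays still include WT oil replicate 1.

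**Figure D1:**
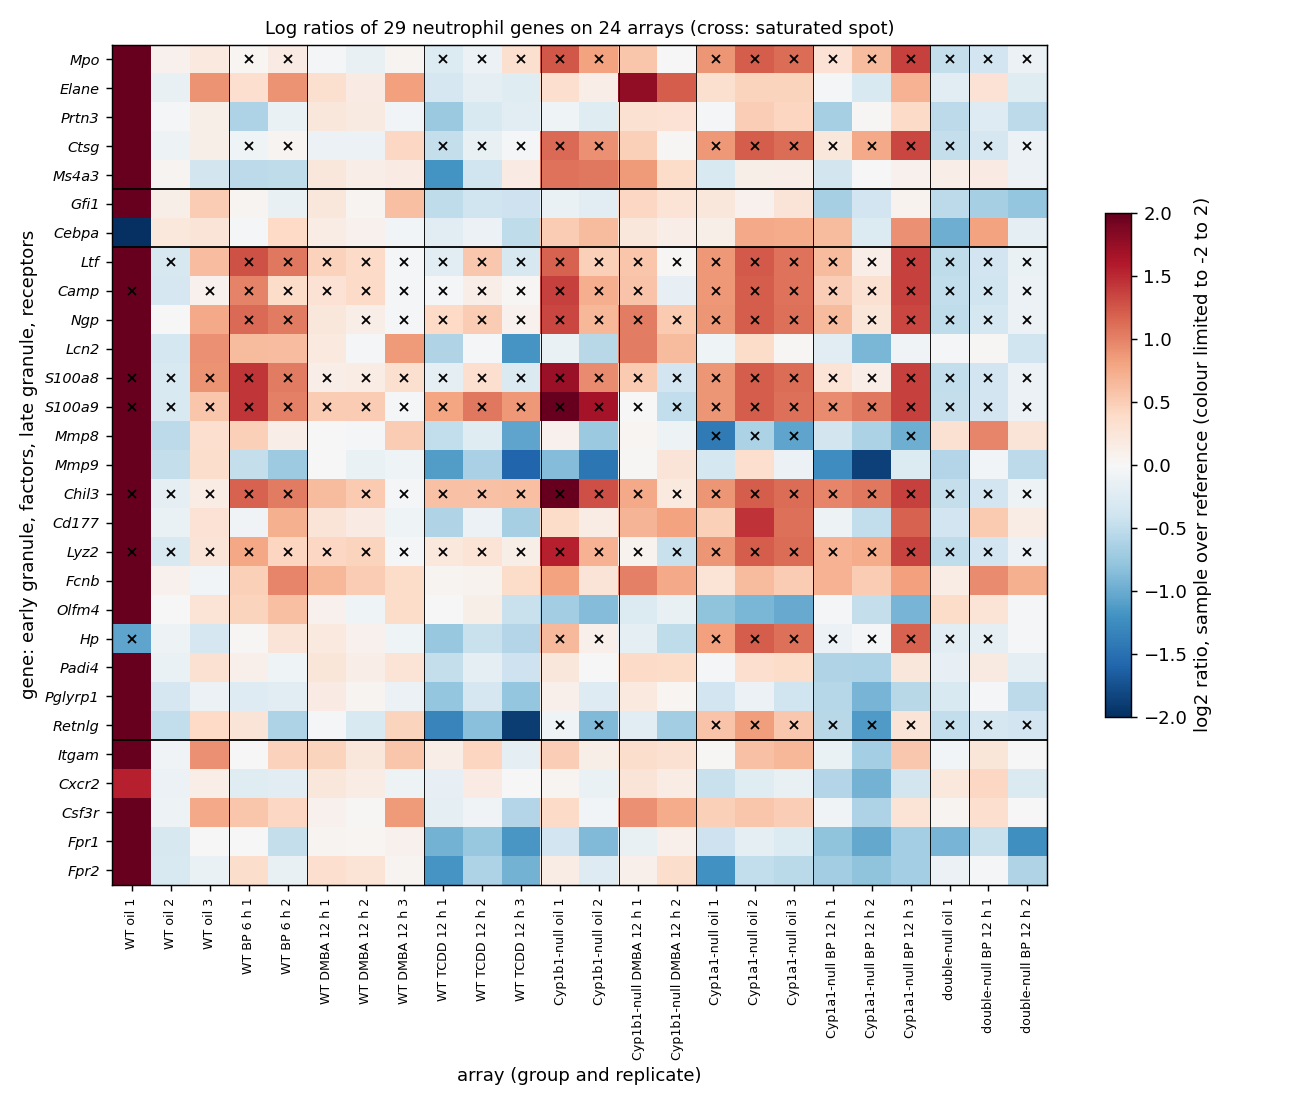
Log2 ratio of sample over reference for the 29 genes (rows, in order of class) on 24 arrays (columns); colour is limited to -2 to 2 and a cross marks a spot saturated in either channel. WT oil replicate 1 is at the red limit for nearly all genes. Most saturated genes share nearly 1 colour within each Cyp1a1-null oil array, where Mmp8 is an exception, and within each double-null array.

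Between 38.8% and 85% of the probes were well above background in Cy3. Arrays fell on 10 slides, and log ratios over all genes resembled each other more within a slide (mean correlation 0.668 for arrays of different groups) than within a group on different slides (0.217). TCDD, WT BP and Cyp1b1-null DMBA arrays each fill a slide that holds no other group, so for them slide and group cannot be told apart. Both double-null groups share a slide with each other and with no other genotype. No slide held both WT and null arrays. In every comparison of null with WT marrow, slide and genotype therefore cannot be told apart either. The Cyp1a1-null oil arrays were also read with a software version that was used on no WT array. Cyp1a1 gave log ratios of -0.11 to 0.48 after oil, 1.71 to 1.94 after BP and 1.76 to 1.93 after DMBA in WT marrow. After TCDD it was at 0.18, 0.15 and 1.55, so replicates 1 and 2 lay within the range of oil. In Cyp1b1-null marrow it was at -0.01 to 0.02 after oil and only 0.04 to 0.23 after DMBA. It was at -0.43 to 0.11 in the 9 arrays from mice lacking it, where it was not well above background on any. The Cyp1b1 probe read 0.51 to 1.08 in Cyp1b1-null oil arrays, 0.06 to 0.14 in Cyp1b1-null DMBA arrays and 1.11 to 1.57 in the double-null arrays; no source used here places it inside or outside the deleted part, so it does not check these labels.

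DMBA and TCDD are both ligands of the aryl hydrocarbon receptor, DMBA a methylated polycyclic hydrocarbon and TCDD a chlorinated dioxin, and they were compared in WT marrow at the same stated dose and time; this was the 1 pair of compounds that could be matched. Neutrophil genes had lower means after TCDD than after DMBA. All 17 never-saturated genes had a higher mean after DMBA, with a median difference of 0.60 on the log2 scale, against 0.01 over all genes tested. Over the 23 arrays, 4 of the 17 were called at an adjusted p under 0.05 (limma, Benjamini-Hochberg over all genes), all higher after DMBA, as were 4.48% of all genes (6.34% in either direction). Retnlg, saturated elsewhere in the series, was the fifth member called. Over all 24 arrays none was called, with 2 of the 29 at an unadjusted p under 0.05, where 0.656% of all genes were called in either direction. For 12 of the 17 the 3 DMBA arrays lay wholly above the 3 TCDD arrays, which held for 17.4% of all genes.

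The clearest separation was in the formyl peptide receptors, which let neutrophils follow bacterial peptides. Fpr2 was at 0.34, 0.28 and 0.05 on the DMBA arrays and at -1.18, -0.62 and -0.95 on the TCDD arrays, so the groups did not overlap. The difference was 1.14 ± 0.20 (SE; adjusted p = 0.00336, limma, 23 arrays). Fpr1 was at 0.06, 0.04 and 0.08 after DMBA and at -0.95, -0.76 and -1.17 after TCDD. It differed by 1.02 ± 0.19 (adjusted p = 0.00404, limma, 23 arrays). These neighbouring genes on chromosome 17 are shown with the bases before their transcription starts, since they moved together. The sequences are RefSeq's (GRCm38.p6), 5′ to 3′ on the gene's strand, and capitals mark each match on either strand to TTNNGNAA, a loose form of the C/EBP recognition sequence; the region is chr17:17883940-17884189 (minus strand) for Fpr1 and chr17:17887574-17887823 (plus strand) for Fpr2.
Fpr1: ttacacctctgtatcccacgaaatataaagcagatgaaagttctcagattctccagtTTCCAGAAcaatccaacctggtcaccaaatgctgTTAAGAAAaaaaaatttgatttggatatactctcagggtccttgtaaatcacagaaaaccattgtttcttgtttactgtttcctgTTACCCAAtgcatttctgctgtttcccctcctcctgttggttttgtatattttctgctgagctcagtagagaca
Fpr2: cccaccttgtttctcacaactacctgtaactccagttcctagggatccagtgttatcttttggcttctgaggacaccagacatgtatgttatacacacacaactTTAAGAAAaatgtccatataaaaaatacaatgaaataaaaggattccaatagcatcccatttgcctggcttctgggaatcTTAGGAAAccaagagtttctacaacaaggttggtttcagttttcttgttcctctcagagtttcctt

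The other receptors differed less between the compounds. Csf3r, the receptor for the growth factor G-CSF, was at 0.09, 0.02 and 0.85 after DMBA and -0.18, -0.07 and -0.58 after TCDD, a difference of 0.60 with a 95% interval of 0.06 to 1.13 that was not called (adjusted p = 0.196, limma, 23 arrays). Cxcr2, the chemokine receptor that draws mature neutrophils out of the marrow, was at 0.22, 0.15 and -0.10 after DMBA and -0.17, 0.17 and 0.00 after TCDD. Its groups overlapped, and the interval of the difference ran from -0.27 to 0.45. Itgam, the CD11b integrin chain, had an interval of -0.32 to 0.88.

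Among the factors, Gfi1, a repressor needed for granulocyte differentiation, was at 0.23, 0.05 and 0.60 after DMBA and at -0.51, -0.40 and -0.41 after TCDD. The difference was 0.73 ± 0.16 (adjusted p = 0.0137, limma, 23 arrays). Cebpa was 0.34 higher after DMBA, with an interval of -0.23 to 0.91.

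The 7 never-saturated late granule genes also had higher means after DMBA. Pglyrp1, a peptidoglycan-binding protein of the specific granules, was at 0.16, 0.05 and -0.12 after DMBA and at -0.78, -0.34 and -0.77 after TCDD, a difference of 0.66 ± 0.16 (adjusted p = 0.0178, limma, 23 arrays). Retnlg, a resistin-like secreted protein of late neutrophils, was saturated on no DMBA or TCDD array and was at -0.02, -0.30 and 0.44 against -1.32, -0.83 and -1.90. It had the widest gap of the 29 genes, 1.39 ± 0.35 (adjusted p = 0.0268). Mmp9, the gelatinase of the gelatinase granules, was at 0.00, -0.14 and -0.09 after DMBA and at -1.11, -0.65 and -1.59 after TCDD. These groups did not overlap, but the difference of 1.04 ± 0.33 was not called (adjusted p = 0.0740). Lcn2, which binds bacterial siderophores, differed by 0.95 (interval 0.25 to 1.64), and Olfm4 by 0.23 (interval -0.17 to 0.63); neither was called.

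The 3 measurable early genes moved by a similar amount without being called. Elane, neutrophil elastase, was at 0.32, 0.16 and 0.82 after DMBA and at -0.33, -0.19 and -0.24 after TCDD, a difference of 0.69 with an interval of 0.11 to 1.27. Prtn3, proteinase 3, differed by 0.54 and Ms4a3, a tetraspan membrane protein of granulocyte progenitors, by 0.65. Medians of the never-saturated genes were 0.65 for the early, 0.58 for the late and 0.60 for the receptor class. The 9 genes saturated on the TCDD arrays were split in sign, and none was called. Ltf and Ctsg differed by 0.28, S100a8 by 0.25, Camp by 0.18, Lyz2 by 0.07 and Mpo by -0.02. S100a9, the partner of S100a8, had a lower mean after DMBA (-0.57, interval -1.07 to -0.08, adjusted p = 0.176), as had Chil3 (-0.22) and Ngp (-0.21). Mmp8, the neutrophil collagenase, and Hp, the haemoglobin scavenger haptoglobin, were saturated on none of these arrays and differed by 0.77 and 0.67; neither was called.

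**Figure D2:**
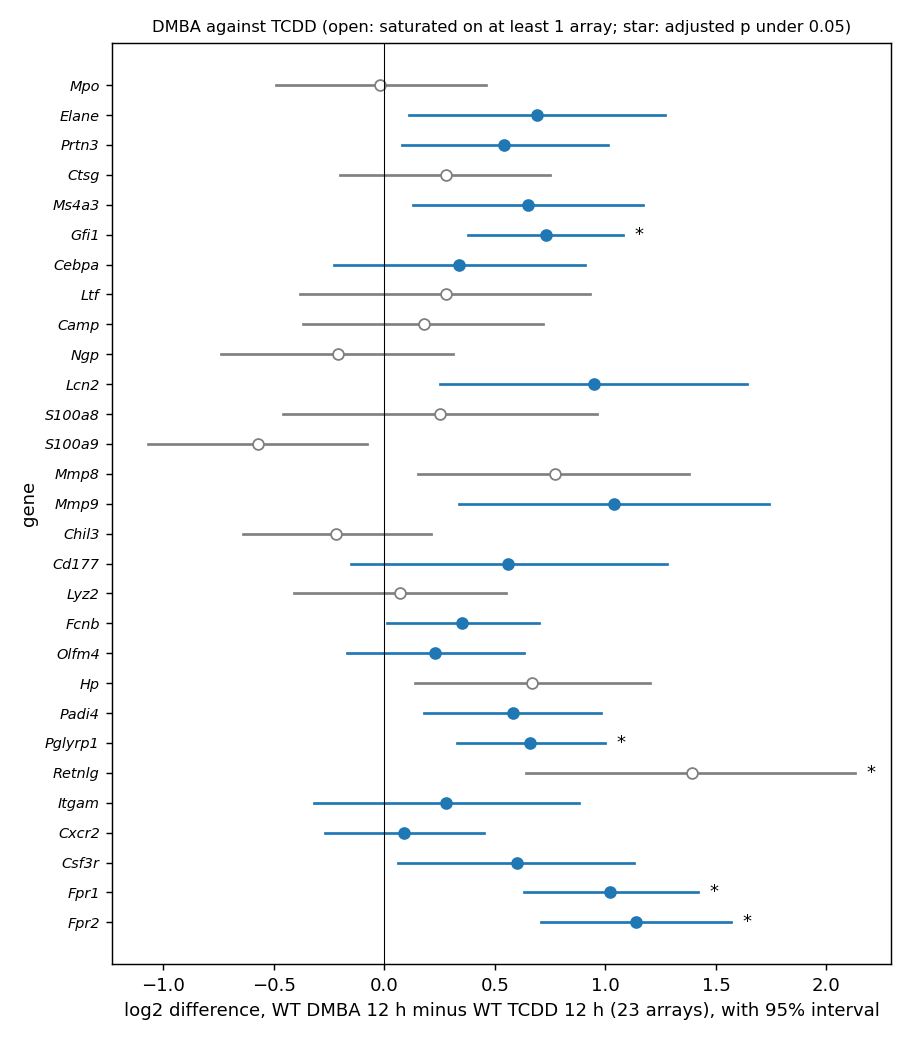
Log2 difference between WT DMBA and WT TCDD arrays at 12 h for each of the 29 genes over 23 arrays (points), with 95% intervals (lines); open points are genes saturated on at least 1 array of the series and stars mark an adjusted p under 0.05. All 17 filled points lie above 0, from 0.09 for Cxcr2 to 1.14 for Fpr2.

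All 3 TCDD arrays share a slide with no other group. With slide as a random block and without WT oil replicate 1 none of the 29 was called (Fpr2 adjusted p = 0.311, Fpr1 0.296), and 0.0456% of all genes were. A list of 29 other neutrophil genes, read on the same arrays and chosen with earlier results known, had a median in the same direction as the members. Of these genes 8 were called higher after DMBA and none lower over the 23 arrays, with a median of 0.55. Over all 24 none was called. Being from the same arrays, the list is not separate support. Cyba, a subunit of the oxidase that makes superoxide, was 0.80 higher (adjusted p = 0.0033, limma) and Clec4e, a sensor of microbial glycolipids, 0.84 higher (adjusted p = 0.00611). Of 25 genes for signals of granulopoiesis and release, 4 were called higher and none lower over the 23 arrays, including Cebpd by 1.14 and Cebpb by 0.92, and none over all 24.

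Genes of other cells were called over the 23 arrays too. Of 15 monocyte and macrophage genes 7 were called higher after DMBA and none lower; the log2 of their summed Cy3 signal, relative to the 75th percentile, was 7.00 to 7.26 on the DMBA arrays and 5.57 to 6.58 on the TCDD arrays. Of 11 eosinophil and basophil genes 4 were called higher, with sums of 7.40 to 8.04 and 5.93 to 7.21. Of 12 erythroid genes 7 were called lower after DMBA, with sums of 8.75 to 8.84 and 8.07 to 9.28. Of 10 megakaryocyte genes 2 were called higher, Ppbp by 1.77 and Gp1ba by 0.98, and of 10 mitosis genes 1, Cdk1, by 0.37. None of 12 B cell genes, 12 T and NK cell genes or 10 liver genes was called, with medians of 0.20, -0.08 and 0.03, and 1 of 9 skeletal muscle genes was lower. The calls in these lists fell, over all 24 arrays, to 1 monocyte gene, higher, and 1 erythroid gene, lower. With slide as a random block and without WT oil replicate 1, 11 genes were called in the whole series, so most of the list calls were lost. Each gene of these lists was well above background on at least 1 array, apart from 1 skeletal muscle gene. Their part in the neutrophil result was not tested. On Cy3 alone 24 of the 29 members were called higher after DMBA over all arrays, and Fpr2 differed by 1.91 (adjusted p = 1.85e-05, limma) and Fpr1 by 1.80. The share of all genes called on Cy3 alone was not counted, and these Cy3 differences were not particular to neutrophil genes. B cell genes, none of them called on the ratio, had Cy3 sums of 6.29 to 7.10 on the TCDD arrays and 7.40 to 7.51 on the DMBA arrays, and mitosis genes had median Cy3 levels of 2.24, 2.50 and 3.47 against 3.88 to 4.01. Liver genes went the other way, with medians of -0.43, -0.37 and -1.93 on the TCDD arrays and -3.21 to -2.76 on the DMBA arrays.

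Against the oil controls, 2 never-saturated genes were lower after TCDD over the 23 arrays. Gfi1 was at 0.12 and 0.50 on WT oil replicates 2 and 3, above all 3 TCDD arrays, and fell by 0.75 on the log2 scale (SE 0.18; adjusted p = 0.0287, limma). Fpr1 was at -0.32 and 0.00 in oil and fell by 0.80 (SE 0.21; adjusted p = 0.0365). Of the 17, 16 had a negative difference, with a median of -0.51 against 0.02 over all genes, and 3.92% of all genes were called lower (6.15% in either direction). Fpr2 (-0.71), Mmp9 (-1.05) and Retnlg (-1.31) were not called, with adjusted p of 0.0693, 0.0893 and 0.0574 (limma). Elane (-0.63) and Cxcr2 (-0.01) were not called either. Nor were Mpo (-0.17), Ltf (-0.15), Camp (0.15) and S100a8 (-0.34). These 4 were saturated on all 3 TCDD arrays, so their differences are not levels. Over all 24 arrays the median of the 17 was -1.62 with 16 negative, none of the 29 was called and 19 had an unadjusted p under 0.05, where 2.18% of all genes were called in either direction. Keeping that array and leaving out WT oil replicate 2 or 3 gave 21 and 8 calls, where the share of all genes called was not counted. The TCDD calls were lost with slide as a random block and without WT oil replicate 1 (Gfi1 adjusted p = 0.306, Fpr1 0.420), where 0% of all genes were called. On Cy3 alone 17 of the 29 were called, all lower, with Fpr1 at -1.41 and Mmp9 at -1.44. The share of all genes called there was not counted either. On these TCDD arrays Cy3 for B cell genes was also below that of the DMBA arrays. Over the 23 arrays 1 of the 29 other neutrophil genes, Cybb, was called lower (-0.99, adjusted p = 0.0449, limma), and of the granulopoiesis signals Socs3, a feedback inhibitor of cytokine receptors, was higher by 0.60 and Cebpd lower (-1.03), as was Myb (-0.68); over all 24 no gene of either list was called.

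No neutrophil gene was called after DMBA against oil in WT marrow over either set of arrays. Over the 23 arrays none of the 29 was called (limma; 1 at an unadjusted p under 0.05), where 0.0996% of all genes were. The 17 never-saturated genes had a median difference of 0.06, against 0.02 for all genes, and 11 were positive. Over all 24 the median turned to -0.80 with 16 of the 17 negative, so the direction rests on WT oil replicate 1. Without that replicate Elane was at -0.15 and 0.90 in oil, a range that held all 3 DMBA arrays. Over the 23 arrays the interval of its difference ran from -0.59 to 0.71. Mmp9 had an interval of -0.79 to 0.77, Cxcr2 of -0.32 to 0.48 and Mpo, saturated on none of these arrays, of -0.72 to 0.34. The largest differences among the 17 over the 23 arrays were of Fcnb, a ficolin of the late granules, at 0.50 (interval 0.12 to 0.88), and of Fpr2 at 0.44 (interval -0.04 to 0.92). Over all 24 arrays no gene in the series was called (0%), and 2 of the members had an unadjusted p under 0.05. On the 1 slide that holds both groups, 2 DMBA arrays set against WT oil replicate 2 gave 21 of the 29 called, all higher, with a median of 0.34 for the 17; 29.1% of all genes were called there, and the spread of the single oil array was borrowed from the DMBA pair.

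After BP at 6 h in WT marrow the median log ratio of the late granule genes lay above that of the early ones on both arrays, while single genes overlapped. The median log ratio of the 3 never-saturated early genes was -0.52 and -0.13, and that of the 7 late genes 0.10 and 0.60. The early minus late difference, -0.61 and -0.73, was below that of each of the other 22 arrays, which ran from -0.20 to 0.62; this difference was not tested between groups. Elane did not share the early drop, at 0.34 and 0.90, which rested on Prtn3 and Ms4a3. On Cy3 alone these 3 genes had differences from oil of 0.02 (Prtn3), -0.02 (Ms4a3) and 0.49 (Elane) over the 23 arrays. Ms4a3 was at -0.52 and -0.51, below WT oil replicates 2 and 3 at 0.05 and -0.37. Lcn2 was at 0.63 and 0.61, between the oil arrays at -0.35 and 0.91. Olfm4, a glycoprotein of the specific granules, was at 0.44 and 0.60, above 0.01 and 0.28. Its Cy3 level, 0.84 and 1.04 relative to the 75th percentile, was the highest of the 24 arrays, though the Cy3 difference of 1.12 was not called (adjusted p = 0.143, limma). No single never-saturated gene was called, Fcnb coming nearest (0.72, adjusted p = 0.0539). Over the 23 arrays 2 of the 29 genes were called, S100a9 (1.10 ± 0.29, adjusted p = 0.0419, limma) and Chil3 (1.12 ± 0.25, adjusted p = 0.0192), both saturated in the reference, and 3.86% of all genes were called (1.5% higher). Over all 24 arrays none was (4 at an unadjusted p under 0.05), against 0.739% of all genes, and 16 of the 17 were negative with a median of -0.89. Over the 23 arrays Elane (0.25), Mmp9 (-0.53) and Cxcr2 (-0.25) were not called. Nor was Mpo (-0.04), which was saturated on both BP arrays, so its difference is not a level. Of the 25 signal genes 5 were called higher and none lower, including the neutrophil chemokine Cxcl2 by 3.83 (adjusted p = 0.00211, limma, 23 arrays), Il6 by 2.00 and Socs3 by 1.29. Csf1, the macrophage growth factor, was called also over all arrays (0.76, adjusted p = 0.0402). Of the other neutrophil genes 3 of 29 were called, all higher: Il1r2, a decoy receptor for interleukin 1 (1.33), Clec4e (0.92) and Trem1, an amplifier of inflammation (0.85); none was over all 24. The slide of the BP arrays holds no other group; with slide as a random block and without WT oil replicate 1 none of the 29 members was called, and 0.0083% of all genes were.

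**Figure D3:**
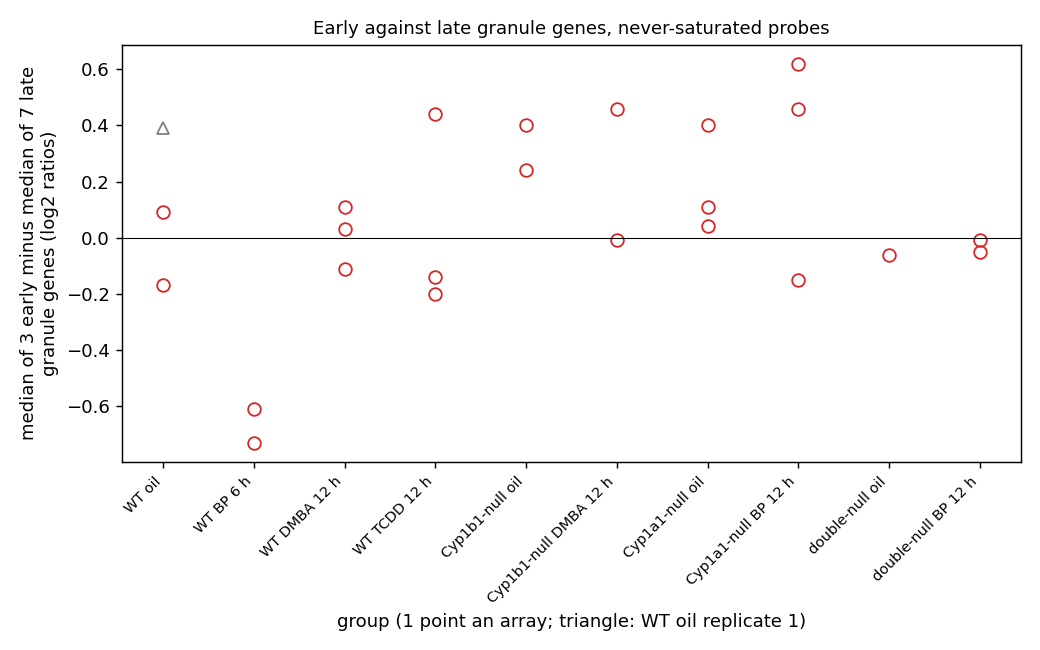
Median log2 ratio of 3 early granule genes (Elane, Prtn3, Ms4a3) minus that of 7 late granule genes, 1 point an array, in the 10 groups; only never-saturated genes enter. The WT BP 6 h arrays are at -0.61 and -0.73, and the double-null arrays lie between -0.06 and -0.01.

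Oil-treated Cyp1b1-null marrow had a lower log ratio of Olfm4 than WT marrow, and a higher one of Ms4a3 only without WT oil replicate 1. Neither was called on Cy3 alone. Over all 24 arrays 1 of the 29 members was called, against 15.5% of all genes. Over the 23 arrays 7 were called higher and 2 lower, against 29.7% of all genes, so calls were not particular to these members. Olfm4 was at -0.70 and -0.86 in the null and at 2.27, 0.01 and 0.28 in WT oil, without overlap. It was called over all 24 arrays (-1.64 ± 0.45, adjusted p = 0.0232, limma), where 15.5% of all genes were called (6.87% lower), and over the 23 (-0.93 ± 0.23, adjusted p = 0.00766), where 29.7% were (17.4% higher and 12.3% lower). It was the 1 member called over all arrays, and 7 had an unadjusted p under 0.05. It was called with slide as a random block and without WT oil replicate 1 (-1.19, adjusted p = 0.0257) but not with the slide block over all arrays (adjusted p = 0.310), nor with either null array left out over all arrays (-1.72 and -1.56, adjusted p = 0.122 and 0.160). Its 2 probes ran together across arrays (r = 0.96). The sample channel did not separate the groups: Cy3 levels were -0.03 and -0.40 in the null and 0.09, -0.24 and -0.11 in WT oil, a difference of -0.13 (adjusted p = 0.810, limma), while Cy5 levels were 0.95 and 0.64 against -2.31, -0.21 and -0.42. The region before its start, chr14:80000052-80000301 (plus strand) in GRCm38.p6 (RefSeq), is printed as above for the one member called over all arrays.
Olfm4: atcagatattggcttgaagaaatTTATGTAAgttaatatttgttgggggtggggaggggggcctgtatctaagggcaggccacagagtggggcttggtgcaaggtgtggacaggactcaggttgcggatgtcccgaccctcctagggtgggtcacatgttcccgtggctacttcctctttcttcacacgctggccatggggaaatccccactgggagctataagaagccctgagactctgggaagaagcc
Ms4a3 was at 1.08 and 1.05 in the null, above every other array except WT oil replicate 1, and at 0.05 and -0.37 in the other WT oil arrays. It was higher by 1.22 ± 0.30 over the 23 arrays (adjusted p = 0.00691, limma) and -0.42 over all 24, so its direction rests on WT oil replicate 1. Its Cy3 levels were 5.18 and 5.05 in the null and 4.29, 4.44 and 4.28 in WT oil, without overlap, and on Cy3 alone it was 0.76 higher without a call (adjusted p = 0.519). The other never-saturated early genes did not share this: Elane was at 0.34 and 0.14 (difference -0.13) and Prtn3 at -0.09 and -0.25. The upstream regions of Ms4a3 (chr19:11640852-11641101 (minus strand)) and Elane (chr10:79886062-79886311 (plus strand)) are set side by side as early genes that parted here.
Ms4a3: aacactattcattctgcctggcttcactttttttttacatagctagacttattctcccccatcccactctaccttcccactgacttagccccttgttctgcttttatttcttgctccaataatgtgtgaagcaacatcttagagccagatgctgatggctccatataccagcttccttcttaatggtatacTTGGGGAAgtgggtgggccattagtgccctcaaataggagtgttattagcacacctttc
Elane: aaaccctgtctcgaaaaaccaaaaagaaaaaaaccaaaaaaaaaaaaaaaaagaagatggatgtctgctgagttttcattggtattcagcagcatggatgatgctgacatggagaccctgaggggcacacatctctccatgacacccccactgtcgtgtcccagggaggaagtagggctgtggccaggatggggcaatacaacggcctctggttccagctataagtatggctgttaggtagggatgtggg

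Mmp9 was at -0.87 and -1.45 in Cyp1b1-null oil marrow, below WT oil at -0.47 and 0.35, and was called lower over the 23 arrays (-1.10 ± 0.40, adjusted p = 0.0490, limma) but not with slide as a block (adjusted p = 0.463). Of the 17 never-saturated genes 1 was called higher and 2 lower, with a median of -0.13 against 0.06 for all genes; over all 24 the median was -0.93 with 16 negative. Over the 23 arrays a further 6 genes, Mpo, Ctsg, Camp, S100a9, Chil3 and Lyz2, were called higher by 0.87 to 1.93. The reference was saturated for each on both null arrays. Ltf and S100a8, also saturated on both null arrays, and Cxcr2 (-0.05) were not called over the 23. Of the 25 signal genes 7 were called higher and 2 lower over the 23 arrays, and 3 over all 24: Runx1 (1.65, adjusted p = 0.0292) and Il6ra (0.93, adjusted p = 0.00482) higher, and Irf8, which favours monocytes over granulocytes (-1.75, adjusted p = 0.0320), lower. The 12 B cell genes had summed levels of 6.13 to 6.40 there and 7.42 to 7.84 in WT oil, with 4 called lower and 1 higher over the 23 arrays, and 7 of 15 monocyte genes were called higher and 1 lower. The counts over all 24 were 5 B cell genes lower, and 4 monocyte genes higher and 1 lower. Their part in the neutrophil result was not tested.

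DMBA in Cyp1b1-null marrow went with the highest Elane log ratio of the series apart from WT oil replicate 1, a direction that turned on Cy3 alone. The ratio was at 1.78 and 1.21, above every array but WT oil replicate 1, against 0.34 and 0.14 after oil in the same genotype. Cy3 levels were 3.13 and 2.52 after DMBA and 3.22 and 3.18 after oil, a difference of -0.37 (adjusted p = 0.432, limma, 23 arrays). The ratio was higher by 1.26 ± 0.34 over the 23 arrays (adjusted p = 0.0330, limma), where 7.58% of all genes were called (3.37% higher and 4.21% lower), and not called over all 24 (adjusted p = 0.527), where 0.0249% were and 1 member had an unadjusted p under 0.05. Mmp9, at 0.03 and 0.26 after DMBA, did not overlap oil either but was not called (1.31, adjusted p = 0.0566; -0.23 on Cy3 alone). Of the 17 never-saturated genes 15 were positive, with a median of 0.46 against -0.01 for all genes, and for 11 both DMBA arrays lay above both oil arrays, as for 34.9% of all genes. S100a9, Chil3 and Lyz2 were called lower over the 23 arrays; the reference was saturated on the oil arrays and the sample on the DMBA arrays, so these differences are not levels. With slide as a random block and without WT oil replicate 1 Elane was not called (adjusted p = 0.680), and S100a9 was (-2.41, adjusted p = 0.0277). Cxcr2 (0.24) was not called. Nor was Mpo (-0.75), which was saturated on both oil arrays, so its difference is not a level. The response to DMBA in Cyp1b1-null marrow minus that in WT marrow, the test of whether the genotype changed it, called none of the 17: Elane had a value of 1.20 (interval 0.24 to 2.16, adjusted p = 0.140, 23 arrays) and Mmp9 of 1.32 (interval 0.17 to 2.48). On Cy3 alone that value for Elane had the opposite sign (-0.94, adjusted p = 0.113, 23 arrays; -1.27, adjusted p = 0.0482, all arrays). On the ratio it called 3 saturated genes, S100a9, Chil3 and Lyz2, all lower, and 3.08% of all genes (1.73% lower); over all 24 arrays no member was called (4 at an unadjusted p under 0.05), against 0.0083% of all genes.

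Cyp1a1-null marrow after oil also had a lower log ratio of Olfm4. It was at -0.81, -0.91 and -1.01, below each WT oil array, and was called over all 24 arrays (-1.76 ± 0.40, adjusted p = 0.0286, limma; 3.48% of all genes called, 1.01% higher and 2.46% lower) and over the 23 (-1.06 ± 0.21, adjusted p = 0.00897; 7.6% of all genes, 3.24% higher and 4.36% lower). Leaving out any of the null arrays over all arrays ended the call (adjusted p from 0.0546 to 0.107). With slide as a random block and without WT oil replicate 1 it was not (-0.89, adjusted p = 0.198). Cy3 levels were -0.24, -0.49 and -0.39, beside 0.09, -0.24 and -0.11 in WT oil, a difference of -0.28 that was not called (adjusted p = 0.417, limma, all arrays). The comparison shares its WT oil arrays with that of the Cyp1b1-null marrow, and in both the null and WT arrays lie on different slides. No other never-saturated gene was called. Fpr2 was at -1.21, -0.50 and -0.54, below both WT oil replicates 2 and 3, and Cd177, a surface marker of mature neutrophils, at 0.47, 1.45 and 1.10, above them. On Cy3 alone Cd177 was called higher (1.5, adjusted p = 0.0178, limma, all arrays), as was Fcnb (1.5, adjusted p = 0.00746). On the ratio over the 23 arrays Elane (0.04), Mmp9 (0.02) and Cxcr2 (-0.29) differed little. Hp was called higher (1.53 ± 0.29, adjusted p = 0.0130, all arrays, and 1.26, adjusted p = 0.0152, over the 23), with the reference saturated on all 3 null arrays and on WT oil replicate 1. Over the 23 arrays 6 more saturated genes were called higher, Mpo, Ctsg, Camp, S100a9, Chil3 and Lyz2, by 0.92 to 1.18, at the shared value of each array. The median of the 17 was 0.02 over the 23 arrays, against 0.03 for all genes, and -0.96 with 16 negative over all 24.

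BP for 12 h in Cyp1a1-null marrow called none of the 29 genes over either set of arrays (limma; 1 of 29 at an unadjusted p under 0.05 over 24 arrays, 10 over 23), where 0.0332% and 0.158% of all genes were called. The widest differences over the 23 arrays were of Retnlg (-1.12, with the reference saturated on all 6 arrays, so not a level), Mmp9 (-1.08, interval -1.78 to -0.39, adjusted p = 0.0745) and Cd177 (-0.82). The replicates split by slide. Mmp9 was at -1.24 and -1.86 on the slide shared with Cyp1b1-null oil marrow and at -0.27 on the slide of the Cyp1a1-null oil arrays, which held -0.35, 0.34 and -0.11. Olfm4 was at -0.04 and -0.47 on the first slide and at -0.93 on the second, beside -0.81 to -1.01 in oil. Elane followed, at -0.02 and -0.30 and then 0.70. Within the shared slide, 1 BP array against 3 oil arrays, the median difference of the 17 genes was 0.00 and none was called, as were 0.0166% of all genes. Against the oil group as a whole their median was -0.38, with 14 of 17 negative. Cxcr2 (-0.34) was not called. Nor was Mpo (-0.30), which was saturated on all 6 arrays, so its difference is not a level.

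In mice lacking both enzymes 9 of the 29 genes were saturated in the sample on all 3 arrays, and no fold is given for these. After oil, the 1 array lay below WT oil replicates 2 and 3 for 8 of the 17 never-saturated genes and above them for 5, where 32% and 40.7% of all genes did so. Gfi1 was at -0.53 and Fpr1 at -0.93, differences of -0.83 (adjusted p = 0.0540) and -0.77 (adjusted p = 0.110) over the 23 arrays; Cebpa differed by -1.21 (adjusted p = 0.0803). On Cy3 alone these 3 differed by -0.43, -0.01 and -0.66. All 17 had a negative difference over the 24 arrays, with a median of -1.30. None of the members was called against WT oil over the 24 or 23 arrays (limma; 4 at an unadjusted p under 0.05 in each), where 1.54% and 6.01% of all genes were; Elane (-0.59), Mmp9 (-0.52) and Cxcr2 (0.20) are over the 23. BP for 12 h moved little: Gfi1 was at -0.67 and -0.77 and Elane at 0.29 and -0.25 after BP, the median of the 17 differences was 0.11, and none was called (0 of 29 at an unadjusted p under 0.05 over 24 arrays, 2 over 23), where 0.274% and 0.515% of all genes were called; all 3 arrays share a slide, and within it 0.0872% were. The widest differences were of Cebpa (1.28, adjusted p = 0.214, 23 arrays), Cd177 (0.73) and Fcnb (0.68). The oil group has a single array, and its spread was borrowed from the other groups. Double-null BP arrays set against Cyp1a1-null BP arrays, both at 12 h, gave no call among the 17, with a median of 0.21; Cxcr2 was at 0.41 and -0.29 against -0.58, -0.94 and -0.37, a difference of 0.69 (interval 0.29 to 1.09, adjusted p = 0.0510, limma, 23 arrays). The 6 calls over the 23 arrays, with 3.65% of all genes called (1.66% higher and 1.98% lower), were of saturated genes: Mpo, Ctsg, S100a9, Chil3 and Lyz2 lower and Mmp8 higher (1.26, adjusted p = 0.0423). Over all 24 none was called (1 at an unadjusted p under 0.05), against 0.141% of all genes.

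**Figure D4:**
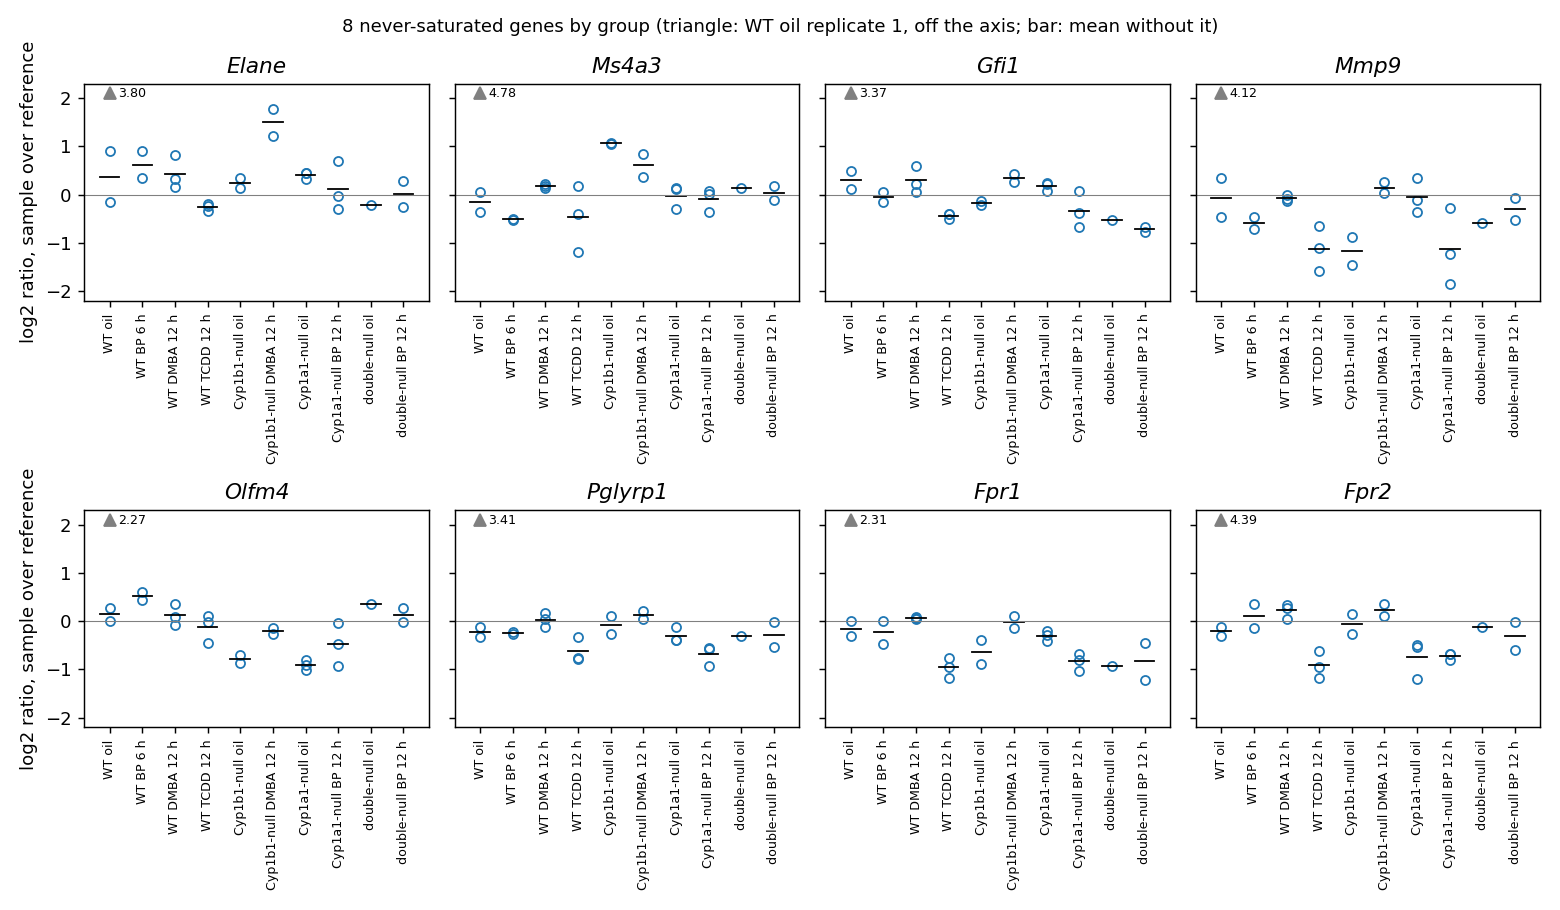
Log2 ratio of sample over reference for 8 never-saturated genes in the 10 groups; circles are arrays, bars group means without WT oil replicate 1, and the triangle marks that replicate, which lies above the axis with its value printed. Fpr1 and Fpr2 are lowest or near lowest after TCDD, the Olfm4 ratio is low in both single nulls after oil, and among the circles the Elane ratio is highest in Cyp1b1-null marrow after DMBA, both directions that the sample channel alone did not show as calls.

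The bases before the transcription starts were searched for the C/EBP sequence, since C/EBP factors act at several steps of granulopoiesis. RefSeq promoters (GRCm38.p6) were found for 28 of the 31 genes, and the 250 bases before each start were searched on both strands for TTNNGNAA. A match was present in 12 of 15 late granule genes, 4 of 6 receptors and 1 of 5 early granule genes, against 36.9% of 27025 genes in the whole promoter set. Mpo, Elane, Prtn3 and Ctsg had none and Ms4a3 had 1. Ngp, Chil3 and Fpr1 had 3 each. Camp, Padi4 and Pglyrp1 of the late genes had none. A match describes these letters and shows no binding.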

How the data were processed

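Agilent 2-colour arrays were read with Feature Extraction (9.1.3.1 on 20 arrays, 10.7.3.1 on 4), per the file headers; the submitters' processing notes name limma. The deposited values used are mean signal and background median intensity per spot; the authors' series table was not used. The authors' processed intensity and the scanner's saturation flag served in alternatives and checks. Spots were background-corrected by normexp (offset 50) and loess-normalised within each array with limma 3.58.1 (R 4.3.3), and log2 of Cy3 over Cy5 was taken from these deposited intensities. Probes were matched to current symbols by accession where possible (26977), then by symbol (5495) or synonym (991). The remaining 7711 kept their array name, and members were taken by name or alias. A gene was tested when Cy3 was well above background on at least 3 arrays. Among never-saturated members with more than 1 probe, the lowest correlation between probes was 0.35 for Padi4, 0.57 for Itgam and 0.59 for Cebpa. It was 0.62 for Cxcr2, 0.82 for Mmp9 and for Fpr2, and 0.96 for Olfm4. One limma model with a mean per group was fitted over 24 arrays, then over 23; p-values were adjusted by Benjamini-Hochberg over all genes and called under 0.05. With at most 3 arrays a group, their number limits the precision. The fit was tested on simulated data with independent noise on each array. That simulation held no slide correlation and no saturation, so it does not measure the error rate of the calls made here. In each comparison the text names Mpo, Elane, Ltf, Camp, S100a8, Mmp9 and Cxcr2 as stage markers where a value could be read, the called members (up to 8), and up to 4 called genes of each other list; genes beyond these were chosen after their values were seen. Lists for other cell types covered monocytes and macrophages, eosinophils and basophils, erythroid, B, T and NK cells, megakaryocytes, liver, skeletal muscle and mitosis. The members and lists were chosen with earlier results of these data known. Replicate numbers do not pair arrays: deviations of same-numbered arrays from their group means correlated between -0.24 and 0.33.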

Additional observations from a re-analysis of the deposited data

How the results depend on the processing

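With at most 3 arrays a group, saturated spots for 12 of the 29 genes and several groups alone on their slides, the number of arrays limits the precision. The processing decided most counts. The share of all genes called was not counted on Cy3 alone, on processed signals, without background subtraction or with 12 arrays above background required. It was also not counted for only the groups compared, with the replicate block, or with any array other than WT oil replicate 1 left out. Over all 24 arrays 1 member was called for Cyp1b1-null oil against WT oil, 2 for Cyp1a1-null oil against WT oil and 0 in the other 10 comparisons (limma). The alternatives that combine processed signals, Cy3 alone or saturated spots as missing with leaving out WT oil replicate 1, and the tests within a slide, were chosen after seeing the data. For the values below that moved, the cause was not tested.

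Leaving out 1 array at a time gave 0 to 2 members called for WT BP against oil (2 without WT oil replicate 1), 0 to 1 for WT DMBA (1 without WT oil replicate 2), 0 to 21 for WT TCDD (2, 21 and 8 without WT oil replicates 1, 2 and 3) and 0 to 3 for the DMBA response of Cyp1b1-null minus WT marrow (3 without WT oil replicate 1). The range was 0 to 14 for Cyp1b1-null oil (9, 14 and 4 without WT oil replicates 1, 2 and 3, 2 without Cyp1a1-null BP replicate 3, and 0 without either Cyp1b1-null oil array) and 0 to 13 for Cyp1a1-null oil (8, 13 and 5 without the WT oil arrays in the same order, 1 without Cyp1a1-null oil replicate 1, 0 without its replicate 2 or 3). It was 0 to 4 for Cyp1b1-null DMBA, 0 to 5 for DMBA against TCDD and 0 to 6 for double-null against Cyp1a1-null BP, the highest each without WT oil replicate 1. It was 0 to 1 for Cyp1a1-null BP (1 without its replicate 3), 0 to 5 for double-null oil (5 without WT oil replicate 2) and 0 to 0 for double-null BP.

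On Cy3 alone 17 members were called for TCDD against oil and 24 for DMBA against TCDD, with and without WT oil replicate 1, 1 for double-null against Cyp1a1-null BP in both, 2 for the difference of DMBA responses, and 0 for Cyp1b1-null oil without that replicate. With slide as a random block none was called for Cyp1b1-null or Cyp1a1-null oil, where no gene of the series was. Without WT oil replicate 1 as well, 6 of 29 were called for Cyp1b1-null oil, where 935 of 24102 genes were called higher and 921 lower. For Cyp1a1-null oil it was 0 of 29 (32 genes higher and 14 lower). For Cyp1b1-null DMBA 1 was called (0 genes higher and 45 lower), and 1 for the difference of responses (2 and 39). Fitting only the groups compared gave 0 for both null oil comparisons, 10 for Cyp1b1-null DMBA and 9 for DMBA against TCDD. Without background subtraction 1 was called for TCDD and 1 for Cyp1a1-null oil, and processed signals gave 0 for the latter. Requiring 12 arrays above background gave 2 for Cyp1b1-null oil. Processed signals without WT oil replicate 1 gave 3 for TCDD, 7 for Cyp1b1-null oil, 1 for Cyp1b1-null DMBA, 4 for DMBA against TCDD, 3 for double-null against Cyp1a1-null BP and 1 for the difference of responses. With saturated spots as missing 1 of the 17 members still tested was called for Cyp1a1-null oil, where 204 of 23647 genes were called higher and 575 lower. Without WT oil replicate 1 as well it was 1 of 17 (466 genes higher and 915 lower). In that setting 2 of 20 were called for TCDD (468 and 916 of 23990 genes) and 3 of 18 for Cyp1b1-null oil (4108 and 2965 of 23873). It was 1 of 18 for Cyp1b1-null DMBA (799 and 870 of 23873) and 6 of 20 for DMBA against TCDD (1085 and 398 of 23990). Within 1 slide, DMBA against oil gave 21.

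Replicate numbers do not pair the arrays. With the replicate block 1 member was called for Cyp1b1-null oil, 2 for Cyp1a1-null oil and 0 in every other comparison, so the block changed no count.

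Single genes turned in sign mainly without WT oil replicate 1. For Cyp1b1-null oil the values then were 1.16 for Camp, 1.66 for Chil3, 1.01 for Ctsg, 1.15 for Lyz2, 0.87 for Mpo and 1.22 for Ms4a3, the last the same with saturated spots as missing. With the slide block as well they were 1.55, 1.90, 1.20 and 1.46 for the first 4, and with processed signals 1.07, 1.56, 0.82 and 1.01, and 1.09 for Ms4a3. For Cyp1a1-null oil they were 1.18 for Camp, 1.08 for Chil3 (1.00 on processed signals), 1.05 for Ctsg, 1.09 for Lyz2, 0.92 for Mpo and 0.94 for S100a9. Chil3 turned to 1.12 for WT BP and to -1.57 for the difference of responses. Leaving out 1 array at a time took these genes, for Cyp1b1-null oil, from -1.37 (Camp), -2.10 (Chil3), -1.96 (Ctsg), -0.75 (Lyz2), -2.37 (Mpo) and -1.35 (Ms4a3) up to the values without WT oil replicate 1. For Cyp1a1-null oil the lowest were -1.35 (Camp), -2.69 (Chil3), -1.92 (Ctsg), -0.81 (Lyz2), -2.32 (Mpo) and -0.69 (S100a9). For Chil3 the range was -2.64 to 1.12 for WT BP and -1.57 to 2.2 for the difference of responses. In all, 1318 gene values kept their direction and side of the threshold, 76 gained and 24 lost a call, 65 moved and 25 turned. The early minus late difference over all early and late granule genes, saturated ones included, moved in 3 of 72 cases. All were on the mean of probes (-0.33, -0.09 and -0.12), and this difference was not run on Cy3 alone. The difference over never-saturated genes, given above for the BP arrays, was not put through these alternatives, so its stability was not tested.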
